A study of Homo sapiens with 33 samples.

Results

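Interferon-stimulated genes are the set that a cell switches on after an interferon binds its receptor, and 53 of them, most with known antiviral roles, were followed across THP-1 cells treated with retinoic acid (RA), tumor necrosis factor alpha (TNFalpha, here TNF) or both. The 53 genes are a list of human symbols with no threshold on a measured value, and each was represented by the probe set of highest mean among those annotated with that symbol alone. They are 53 of the 19775 genes with such a probe set on the array. THP-1 is a human monocytic leukaemia line, and all wells came from this single line.

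Type I and type II interferons signal through paired receptor chains and JAK kinases to STAT and IRF transcription factors, which bind short promoter elements in front of these genes. The type I element is the interferon-stimulated response element (ISRE) and the STAT dimer element is the gamma-activated site (GAS). The products degrade viral RNA, block translation, hold virions at the membrane, or attach the small protein ISG15 to targets. In myeloid cells the same genes are known to respond to several inflammatory signals, in part through interferon made by the cells themselves.

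Total RNA was hybridised to 33 Affymetrix HG-U133 Plus 2 arrays, 1 array per culture well. In experiment 1 all wells were harvested at 40 h: 6 received 0.1% ethanol as vehicle, 5 received 20 nM RA for 40 h with a second addition at 16 h, 5 received 5 ng per ml TNF for the last 24 h, and 5 received 20 nM RA for 40 h together with 5 ng per ml TNF for the last 24 h. Experiment 2 followed 20 nM RA over time: 2 wells were taken after 2 h, 2 after 6 h and 3 after 16 h, and 2 of the RA wells above served for 40 h. Its vehicle group joined 5 wells harvested at 16 h with 3 of those at 40 h. The series text calls the controls of experiment 2 time 0, whereas the treatment notes of those 5 wells give harvest at 16 h. Replicates are separate wells, so every p-value below measures the spread between wells of this line.

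Every value is a deposited log2 ratio whose zero is the median probe set of that array. By the record numbers in their labels the arrays form 2 runs, 12 arrays named array set 1 and 21 named array set 2. Set 1 holds 3 arrays of every experiment 1 group, set 2 holds the other 3 vehicle arrays and 2 of each treatment, and experiment 2 lies wholly in set 2. The log2 ratio of 3' to 5' signal of ACTB, a measure of RNA quality, averaged 1.31 ± 0.33 (SD) over the 12 arrays of set 1, against 0.51 ± 0.28 (SD) over the 21 of set 2. Its part in differences between the sets was not tested. Recovered array medians ran from 18.9 to 45.19 signal units, and the correlation across genes between arrays of 1 group ran from r = 0.86 to 0.936. Myeloid markers were bright, with ELANE at 9884, CEBPA at 4764 and LYZ at 2338 units on average, but MPO (31.7) and FCGR1A (22.2) lay near the array medians. The summed signal of the 10 myeloid markers measured was 30985 to 39882 units in vehicle, 24298 to 28465 with RA, 18986 to 21972 with TNF and 15615 to 17891 with RA plus TNF, and its part in the results was not tested. ELANE, CTSG (6452 units on average) and CEBPA were its largest terms, so the sum need not describe each marker. Markers of plasmacytoid dendritic cells, the main interferon producers of blood, averaged 14.9 (CLEC4C), 16.5 (LILRA4), 20.8 (TCL1A), 25.7 (IRF4), 75.6 (NRP1) and 132 units (PTCRA). The averages of the first pair, which define the type, lay below the lowest array median. The summed signal of all 6 such markers, of which PTCRA and NRP1 were the largest terms, was 162 to 245 units in vehicle and 157 to 379 with RA. It was 230 to 396 with TNF and 369 to 609 with RA plus TNF, and its part in the results was not tested. In bulk RNA, fewer cells with a transcript and less transcript per cell cannot be told apart.

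The promoters below show where ISRE matches lie, or are missing, in members that the results turn on. They belong to the 3 members of largest TNF difference and the 2 members of smallest adjusted p lower with RA plus TNF than with TNF for which the RefSeq promoter table (GRCh38.p14) holds a sequence. Each runs 5′ to 3′ from 250 bases before the start site to 25 bases after it, and capitals mark ISRE matches, defined as GAAA, any 2 bases, then GAAA again, on either strand. Where a gene had several listed starts the one with most matches is shown, or the first listed if equal.
IFI44, chr1:78649539-78649813, plus strand: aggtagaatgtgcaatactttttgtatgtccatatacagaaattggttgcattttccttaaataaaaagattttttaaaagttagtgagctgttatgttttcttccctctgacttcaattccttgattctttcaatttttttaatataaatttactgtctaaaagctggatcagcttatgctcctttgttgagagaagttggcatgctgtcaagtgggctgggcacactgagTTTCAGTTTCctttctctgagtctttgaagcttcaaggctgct
IFI44L, chr1:78620198-78620472, plus strand: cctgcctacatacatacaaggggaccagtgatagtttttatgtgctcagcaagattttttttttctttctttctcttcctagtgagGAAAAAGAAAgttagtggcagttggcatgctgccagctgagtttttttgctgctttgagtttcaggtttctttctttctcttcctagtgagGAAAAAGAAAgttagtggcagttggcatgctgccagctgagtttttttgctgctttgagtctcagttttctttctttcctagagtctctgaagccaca
IFIT1, chr10:89392373-89392647, plus strand: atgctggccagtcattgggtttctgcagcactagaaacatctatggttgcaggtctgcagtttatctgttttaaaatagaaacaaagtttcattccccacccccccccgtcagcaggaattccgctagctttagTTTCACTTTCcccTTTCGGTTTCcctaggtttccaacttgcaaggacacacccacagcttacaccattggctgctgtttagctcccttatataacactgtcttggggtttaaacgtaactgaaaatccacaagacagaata
XAF1, chr17:6755796-6756070, plus strand: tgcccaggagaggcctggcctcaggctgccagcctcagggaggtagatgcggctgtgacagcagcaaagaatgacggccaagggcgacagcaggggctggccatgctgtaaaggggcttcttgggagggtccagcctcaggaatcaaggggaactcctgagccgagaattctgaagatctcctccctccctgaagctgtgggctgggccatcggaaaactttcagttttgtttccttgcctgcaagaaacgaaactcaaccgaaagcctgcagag
MX1, chr21:41420308-41420582, plus strand: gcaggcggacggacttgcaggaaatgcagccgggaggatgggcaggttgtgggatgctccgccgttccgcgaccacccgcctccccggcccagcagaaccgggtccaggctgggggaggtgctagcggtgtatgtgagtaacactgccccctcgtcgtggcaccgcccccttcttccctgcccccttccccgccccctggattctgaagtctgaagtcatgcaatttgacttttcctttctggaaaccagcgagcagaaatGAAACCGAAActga
IFI44 has 1 match beginning 18 bases before the start, IFI44L has 2 at 164 and 73 bases before it, and IFIT1 has a pair beginning at 116 and 103 bases before it. The MX1 match begins at base 12 of the transcript, and XAF1 has none in the stretch shown.

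A promoter was listed for 42 of the 53 members, with windows of 300 bases from 250 before to 50 after the start. An ISRE match lay in at least 1 window of 31 of these 42 (73.8%), against 1195 of all 27305 genes in the table (4.4%) and 3.6% of its 35116 promoters. The 11 listed members without a match were OAS1, ADAR, CMPK2, HERC6, UBE2L6, IFI16, SP100, SP110, IFI35, XAF1 and SAMD9L. GAS matches (TTCNNNGAA, which reads the same on both strands) were held by 11 of 42 members (26.2%), 9.4% of all genes and 7.7% of all promoters. The NF-kB consensus, searched on both strands, was held by 7 of 42 (16.7%), 13.3% of all genes and 11.3% of all promoters. Of the 5 windows shown, XAF1 and MX1 hold 1 NF-kB match each, none of which overlaps an ISRE match. Members called with TNF and members not called both mostly held an ISRE match, 28 of 38 and 3 of 4 with a listed promoter.

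TNF raised nearly the whole set. Of the 53 members, 47 were higher than vehicle at a Benjamini-Hochberg adjusted p under 0.05 (limma, n = 5 against 6) and 0 were lower, where 6.69% of all 12393 genes tested were called higher and 4.62% lower. At an unadjusted p under 0.05, 51 were higher and 0 lower. All 53 differences lay above 0, with a median log2 difference of 1.76 against -0.01 over all genes. In 39 members every TNF array lay above every vehicle array, as in 3.00% of all genes. Over all genes 829 were called higher and 572 lower, and 1139 and 1406 after quantile normalization, which called 48 members higher and 0 lower. GBP1, GBP5, IFI44L and ISG20 lay under the brightness threshold in vehicle and in RA and passed the filter only through the arrays with TNF, so their calls are not independent of that filter.

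**Figure D1:**
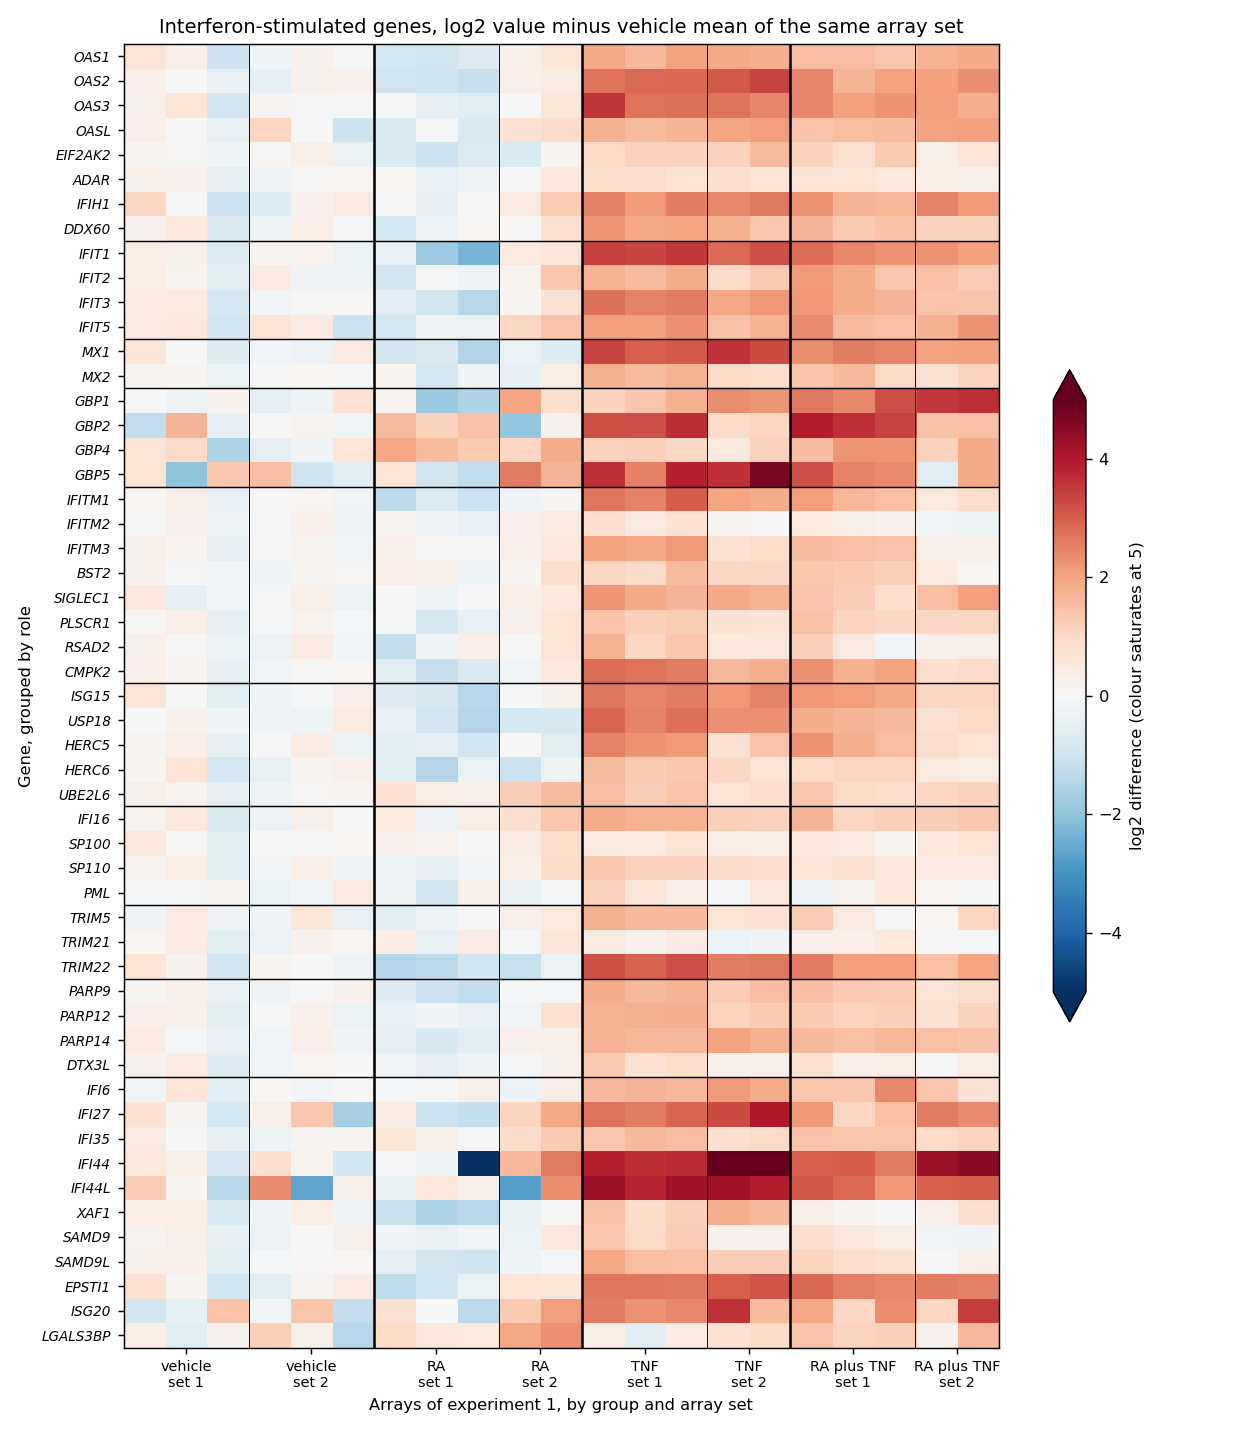
Heat map of the 53 genes (rows, grouped by role) on the 21 arrays of experiment 1 (columns, by group and array set); colour gives the log2 value minus the mean of the vehicle arrays of the same array set. The arrays with TNF are red for nearly every gene, whereas the RA arrays are mostly blue in set 1 and mostly red in set 2.

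All 8 genes of RNA sensing and 2-5A synthesis rose with TNF. OAS2, one of the synthases that make the 2-5A messenger which activates RNase L, had vehicle values of 1.17 at the lowest, 2.24 at the median and 3.31 at the highest, and TNF values of 5.68, 5.8, 5.83, 4.68 and 4.99. Every TNF array lay above every vehicle array, and the difference was 8.05-fold (log2 3.01 ± 0.21, SE, adjusted p = 3.9e-13). OAS3 rose by 2.84, OAS1 by 1.89 and OASL by 1.88 on the log2 scale. The cytosolic RNA sensor IFIH1 (MDA5) rose by 2.48 and DDX60, a helicase linked to RNA sensing, by 1.86. EIF2AK2, the kinase PKR that stops translation on double-stranded RNA, rose by 1.21. ADAR, which edits adenosine in double-stranded RNA, rose by 0.76, the lowest of the group.

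The 4 IFIT genes, whose proteins bind viral RNA and block its translation, also all rose. IFIT1 ran from 0.72 to 2.78 in vehicle with a median of 1.46, and stood at 5.8, 5.74, 5.92, 3.89 and 4.27 with TNF. The groups did not overlap although the set 2 arrays of both lay lower, and the rise was 9.84-fold (log2 3.3 ± 0.33, adjusted p = 1.32e-09). IFIT3 rose by 2.38, IFIT5 by 1.96 and IFIT2 by 1.49. The dynamin-like GTPases MX1 and MX2, which trap viral ribonucleoproteins, rose by 3.27 ± 0.21 and 1.38 ± 0.2. MX1 values were 1.22, 2.11 and 3.56 (lowest, median, highest) in vehicle and 6.31, 5.93, 6.01, 5.12 and 4.78 with TNF, again without overlap (9.66-fold, adjusted p = 3.3e-14).

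Guanylate-binding proteins, large GTPases that act on vacuoles of intracellular microbes, were dim and varied more. GBP5 had vehicle values from -4.17 to -0.41 with a median of -2.66, and TNF values of 1.91, 0.77, 2.15, 0.47 and 1.53. The 2 groups did not overlap, but the vehicle level was below the array medians, so the log2 difference of 3.71 ± 0.94 (adjusted p = 0.00643) carries no reliable fold. GBP2 rose by 2.27 ± 0.44 and GBP1 by 1.87 ± 0.57, and the GBP1 call was lost without TNF replicate 2, 3 or 4 or without vehicle replicate 4. Its 3 other probe sets gave from -0.77 to 1.52. GBP1 and GBP5 passed the brightness filter only through the arrays with TNF. GBP4 did not pass (0.98 ± 0.34, adjusted p = 0.0571), while its other probe set gave 3.49.

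Of 8 genes acting at membranes or on viral entry and release, 7 rose. IFITM1, which blocks fusion of viral and cell membranes, had a vehicle range of 4.03 to 4.75 (median 4.23) and TNF values of 7.13, 6.92, 7.46, 6.12 and 6.03. No TNF array reached down to the vehicle range, and the rise was 5.2-fold (log2 2.38 ± 0.24, adjusted p = 2.03e-09). CMPK2, a mitochondrial nucleotide kinase encoded beside RSAD2, rose by 2.28, and SIGLEC1, a sialic acid receptor of macrophages, by 1.9. IFITM3 rose by 1.48, the virion tether BST2 by 1.11, the scramblase PLSCR1 by 1.06 and RSAD2 (viperin), which makes a chain-terminating nucleotide, by 1.06. IFITM2 did not pass (0.4 ± 0.18). IFITM1, IFITM2 and IFITM3 are close copies whose probe sets can share signal, so their separate values are uncertain.

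The 5 genes of the ISG15 system rose together. ISG15, the ubiquitin-like modifier, rose by 2.47 ± 0.24, its ligase HERC5 by 1.76, the related HERC6 by 1.15 and the conjugating enzyme UBE2L6 by 1.15 ± 0.2. USP18, which removes ISG15 and restrains the type I receptor, ran from 0.76 to 1.6 in vehicle (median 1.27) and stood at 4.29, 3.86, 4.13, 3.29 and 3.29 with TNF. The lowest TNF array lay above the highest vehicle array, and the rise was 5.68-fold (log2 2.51 ± 0.23, adjusted p = 3.96e-10).

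Of the 4 nuclear members 2 rose. IFI16, a nuclear DNA sensor, had a vehicle range of 3.31 to 4.55 (median 3.97) and TNF values of 5.9, 5.77, 5.78, 5.01 and 4.97, which did not overlap, and rose 2.92-fold (log2 1.55 ± 0.22, adjusted p = 2.14e-06). SP110 rose by 1.09, but SP100 (0.5 ± 0.17, adjusted p = 0.0551) and PML (0.51 ± 0.24), both components of PML nuclear bodies, did not pass. The 9 other PML probe sets gave from -0.8 to 1.5, with 8 above 0 and 1 called higher. The 5 others of SP100 gave from 0.15 to 1.24, with 0 called. Among the TRIM ubiquitin ligases, TRIM22 rose 7.48-fold (log2 2.9 ± 0.24, adjusted p = 1.19e-11) and TRIM5, which recognizes retroviral capsids, by 1.28. TRIM22 had vehicle values of 1.27, 1.75 and 2.86 (lowest, median, highest) and TNF values of 5.37, 5.12, 5.41, 4.23 and 4.31, with no overlap. TRIM21, the cytosolic antibody receptor, stayed at 0.1 ± 0.19 and did not pass.

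The ADP-ribosyl transferases PARP14 (1.79 ± 0.18), PARP9 (1.6) and PARP12 (1.55) and the PARP9 partner DTX3L (0.66) all rose. PARP14 had a vehicle range of 2.37 to 3.23 (median 2.55) and TNF values of 4.49, 4.43, 4.37, 4.6 and 4.34, without overlap (3.45-fold, adjusted p = 3.47e-09). Of the remaining 11 genes 10 rose. IFI44 showed the largest difference of all members, at 4.7 ± 0.62 (adjusted p = 5.82e-07), from vehicle values of -3.17 to 1.34 (median -0.74) to 4.68, 4.47, 4.52, 3.39 and 3.52. Its vehicle level was below the array median, so no fold is given. IFI44L followed at 4.07, then IFI27, a small membrane protein, at 3.2, EPSTI1 at 2.87 and the exonuclease ISG20 at 2.55. IFI44L and ISG20 also lay below the array median in vehicle and passed the brightness filter only through the arrays with TNF. IFI6, a protein of the endoplasmic reticulum, rose by 1.78, XAF1 by 1.45 and IFI35 by 1.27. SAMD9 and its copy SAMD9L, which restrict poxviruses, rose by 0.78 and 1.47. LGALS3BP, a secreted glycoprotein, did not pass (0.42 ± 0.35).

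The TNF rise was found in both array sets. Set 1 alone gave 47 members higher (3.20% of all genes) and 0 lower (2.01%), and set 2 alone 36 higher (4.65%) and 0 lower (2.46%). In 46 members the TNF arrays lay above the vehicle arrays within both sets, as in 5.79% of all genes. Leaving out any 1 array left 46 to 49 calls, and only GBP1 and DTX3L lost theirs. Of 39 other probe sets of called members, 35 gave an estimate of the same sign, and GBP1, HERC6 and PARP14 had one of opposite sign.

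RA plus TNF raised 44 of the 53 members above vehicle and lowered 0 (limma, n = 5 against 6; 11.7% of all genes higher, 7.42% lower). The median log2 difference was 1.36, against 0.05 over all genes, and 25 members did not overlap with vehicle (5.80% of all genes). Over all genes 1445 were higher and 919 lower, and 1498 and 1887 after quantile normalization, with 44 members higher and 0 lower in both. No member was lower at an unadjusted p under 0.05 either (45 higher). This comparison and that of TNF with vehicle share the vehicle arrays, and 41 members were called in both. Called with TNF but not with RA plus TNF were GBP5 (1.92 ± 0.94), RSAD2 (0.4), TRIM5 (0.57), DTX3L (0.34), XAF1 (0.37 ± 0.21) and SAMD9 (0.25). Called with RA plus TNF but not with TNF were GBP4 (1.78 ± 0.34), SP100 (0.5 ± 0.17) and LGALS3BP (1.17 ± 0.35), of which GBP4 and LGALS3BP were also called with RA alone. A test of RA plus TNF against TNF did not call these 3. Of the genes called with TNF but not with RA plus TNF, that test called only XAF1. Set 1 alone called 39 members higher (7.38%) and set 2 alone 31 (8.15%), and in 38 members the arrays with both agents lay above vehicle within both sets (9.09%). Leaving out single arrays left 37 to 44 calls, and ADAR, HERC6, SP100, SP110, SAMD9L, ISG20 and LGALS3BP lost theirs without some array.

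**Figure D2:**
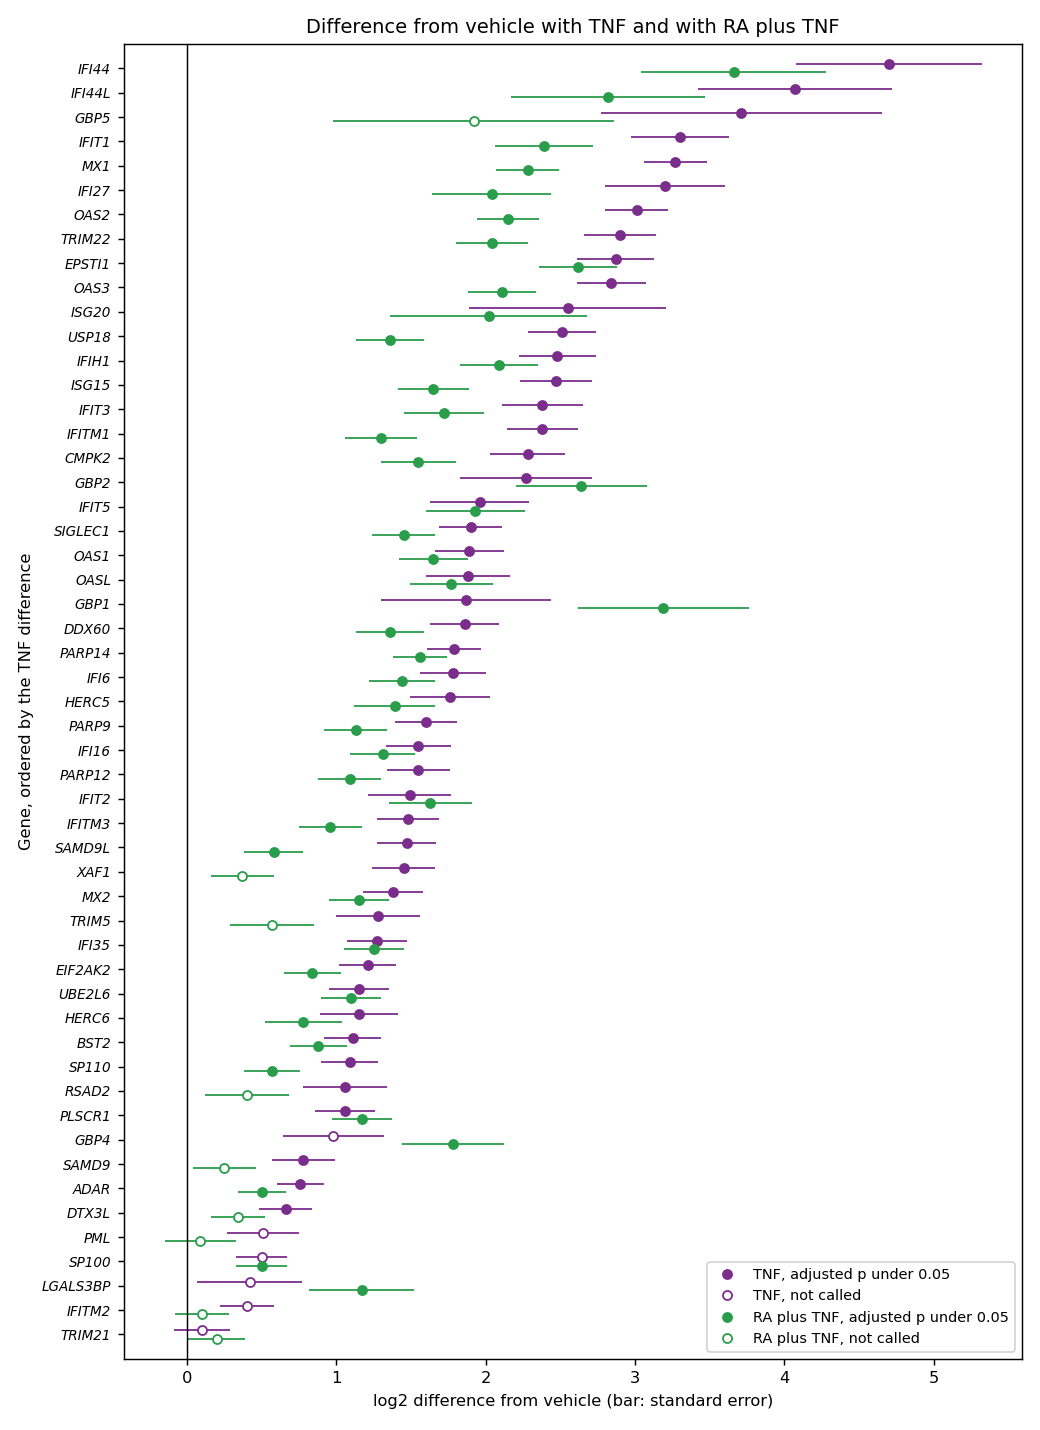
Log2 difference from vehicle of each of the 53 genes with TNF (purple) and with RA plus TNF (green), with bars for the standard error and filled points where the adjusted p was under 0.05. Genes are ordered by the TNF difference, from TRIM21 at 0.1 to IFI44 at 4.7, and for most the green point lies to the left of the purple one.

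RA plus TNF was also set directly against TNF, a contrast that includes any effect RA has without TNF. Of the 53 members 8 were lower and 0 higher with both agents (limma, n = 5 against 5), where 2.69% of all genes were called lower and 4.60% higher. The 8 were USP18 (-1.15 ± 0.24), IFITM1 (-1.08 ± 0.25), XAF1 (-1.08 ± 0.22), MX1 (-0.99 ± 0.22), SAMD9L (-0.89 ± 0.21), OAS2 (-0.86 ± 0.22), TRIM22 (-0.86 ± 0.24) and ISG15 (-0.82 ± 0.25). All 8 were among those raised by TNF, and 7 of them were still above vehicle with both agents. MX1, TRIM22, USP18 and XAF1, 4 of the 8, were also called lower with RA alone, at -0.83, -1.03, -0.93 and -0.84. The log2 3' to 5' ratio of ACTB differed between these groups in set 1, at 1.4 ± 0.06 with TNF (SD, 1.33 to 1.44) and 0.99 ± 0.07 with both (SD, 0.91 to 1.03), and overlapped in set 2 (0.27 to 0.79 and 0.41 to 0.58). The part of RNA quality in these calls was not tested. By array set, all 8 genes were lower with both agents in set 1 (3 against 3 arrays) and in set 2 (2 against 2). At an unadjusted p under 0.05, 22 members were lower and 3 higher.

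XAF1, a protein linked to apoptosis, had the smallest adjusted p of the 8 (0.000792). With RA plus TNF it stood at 4.6, 4.42, 4.26, 3.38 and 3.86, and with TNF at 5.73, 5.17, 5.48, 4.88 and 4.65. Every array with both agents lay below every TNF array (2.12-fold lower), and in the vehicle range over both sets of 2.85 to 4.66 (median 3.47). In set 2 alone, where vehicle stood at 2.87, 3.42 and 2.85, the array at 3.86 lay above vehicle. USP18 likewise did not overlap: 3.24, 3.09, 3.01, 1.79 and 2.0 with both, against a lowest TNF value of 3.29 (2.22-fold lower, adjusted p = 0.00133). IFITM1 stood at 6.52, 6.1, 5.94, 4.66 and 5.05 with both (2.11-fold lower, adjusted p = 0.00363). MX1 stood at 5.28, 5.48, 5.37, 3.51 and 3.57 with both (1.98-fold lower, adjusted p = 0.00201). For these 2 genes some set 1 arrays with both agents lay above the set 2 arrays with TNF, but the groups did not overlap within either set.

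OAS2 with both agents was 5.4, 4.67, 4.99, 3.69 and 3.94 (1.81-fold lower, adjusted p = 0.00983). TRIM22 was 4.78, 4.28, 4.26, 3.15 and 3.64 (1.82-fold lower, adjusted p = 0.0221). In both, each array set again showed the arrays with both agents below those with TNF. The ISG15 call was lost without any of 6 single arrays (TNF replicates 1, 2, 3 and 5 and RA plus TNF replicates 4 and 5), and the TRIM22 call without TNF replicate 1 or 3 or RA plus TNF replicate 4. Leaving out single arrays left 6 to 9 calls. Of 6 other probe sets of called members, all 6 gave an estimate of the same sign. Those of OAS2 gave -0.4 and -0.04 and those of SAMD9L -1.17 and -0.88, with 0 called. Those of XAF1 gave -1.35 and -0.96, and 2 were called.

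**Figure D3:**
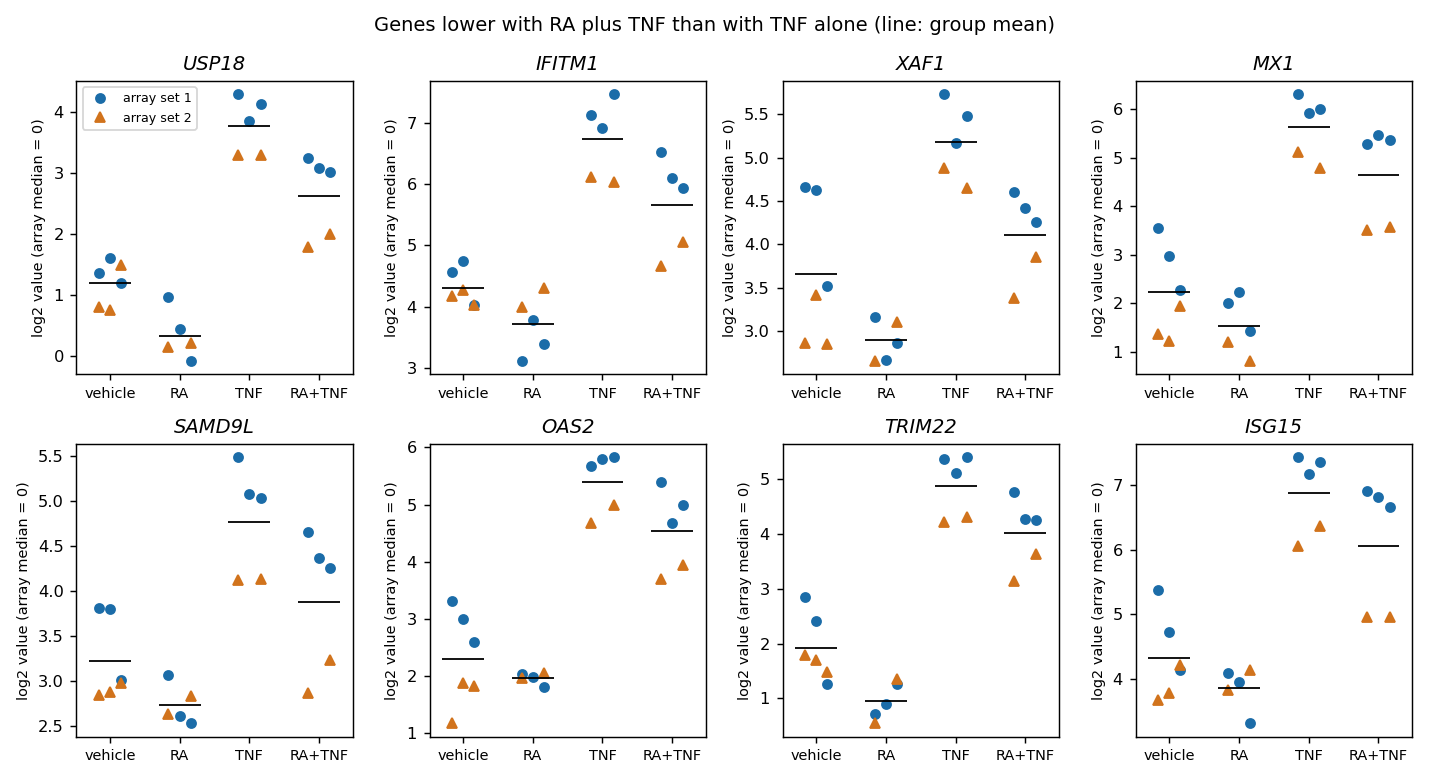
Log2 values of the 8 genes called lower with RA plus TNF than with TNF, 1 point per array (circles array set 1, triangles array set 2, line group mean). Within each array set the RA plus TNF points lie below the TNF points, with XAF1 and USP18 free of overlap over all arrays.

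Most members lay in the same direction. With the 8 called genes included, estimates were below 0 for 46 of 53, against 44.5% of all genes, with a median of -0.42 against 0.04. In 22 members, the 8 among them, the arrays with both agents lay below those with TNF within both array sets, as in 3.77% of all genes, and in 2 members, GBP1 and GBP4, they lay above (7.30%). Over all arrays 3 members did not overlap below (1.83%) and 1 above (3.66%). Among roles the guanylate-binding proteins were split, with GBP1 at 1.33 ± 0.59, GBP4 at 0.81 ± 0.36 and GBP2 at 0.37 ± 0.46, but GBP5 at -1.79 ± 0.98, and none passed. LGALS3BP (0.75 ± 0.37) also lay above 0 and did not pass. Estimates nearest to 0 were SP100 (0.00), IFI35 (-0.02), IFIT5 (-0.03) and UBE2L6 (-0.05).

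How many members passed depended on the fit. Set 1 alone called 2 members lower and 1, LGALS3BP, higher (1.61% and 3.38% of all genes), and set 2 alone 8 lower and 0 higher (2.03% and 2.92%). Quantile normalization called 17 lower and 0 higher. A fit of only the compared groups called 21 lower and 1 higher, and one without the array set 2 lower. Estimates were below 0 in both sets for 38 members and above 0 in both for 6, and 9 had opposite signs. The difference between the sets was called for 0 members (limma, 3 at an unadjusted p under 0.05) in a test chosen after the data were seen. Over all genes 570 were higher and 333 lower, and 807 and 767 after quantile normalization.

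Against RA alone, RA plus TNF raised 38 members and lowered 0 (limma, n = 5 against 5; 7.63% of all genes higher, 4.55% lower), all 38 among those called for TNF against vehicle, a comparison with no arrays in common. At an unadjusted p under 0.05, 42 were higher and 0 lower. The median difference was 1.41 against 0.03 over all genes, and 30 members did not overlap (3.58%), or 32 within both array sets (7.42%). IFI44 (3.76), GBP1 (3.19), MX1 (3.11 ± 0.22), TRIM22 (3.07 ± 0.24) and IFIT1 (3.04 ± 0.34) were among the members raised. Without RA replicate 3, the array that read -4.5, the IFI44 difference was 2.64. The other IFI44 probe set gave 0.28 and was not called. Of 30 other probe sets of called members, 26 gave an estimate of the same sign. OAS3, PLSCR1, HERC6 and PARP14 each had one that did not. The mean levels of IFI44 and GBP1 with RA lay below the array medians (-0.69 and -1.33), and GBP1 passed the filter only through the arrays with TNF. The size of this difference depended on the array set. Set 1 alone called 43 members higher (7.85%) and 0 lower (2.18%) with a median of 1.93, and set 2 alone 18 higher (2.38%) and 0 lower (3.91%) with a median of 0.75. The difference between the sets was called for CMPK2 (-2.14 ± 0.33, set 2 minus set 1, adjusted p = 0.00107), IFITM1 (-2.05 ± 0.34, 0.00246), ISG15 (-2.03 ± 0.37, 0.00865) and IFITM3 (-1.52 ± 0.29, 0.0165) in a test chosen after the data were seen, out of 9 genes called lower and 0 higher over all genes. For 50 of the 53 members it was below 0, with a median of -1.08 against -0.334 over all genes. IFITM3 (-0.1), BST2 (-0.21) and IFI35 (-0.07), called over both sets, had the opposite sign in set 2. Over all genes 946 were higher and 564 lower, and 1167 and 1179 after quantile normalization, which called 40 members higher and 0 lower.

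RA alone for 40 h changed few members and in both directions. It raised GBP4 (log2 1.52 ± 0.34, adjusted p = 0.00406), UBE2L6 (0.84 ± 0.2, 0.00798) and LGALS3BP (1.31 ± 0.35, 0.0218), and lowered TRIM22 (-1.03 ± 0.24, 0.00483), USP18 (-0.93 ± 0.23, 0.0116), MX1 (-0.83 ± 0.21, 0.0119), XAF1 (-0.84 ± 0.21, 0.0125) and EIF2AK2 (-0.63 ± 0.19). The counts were 3 higher and 5 lower of 53 (limma, n = 5 against 6), where 2.77% of all genes were higher and 1.37% lower. The median was -0.08 against 0 to 2 decimals over all genes. Over all genes 343 were higher and 170 lower, and 509 and 551 after quantile normalization, which called 5 members higher and 9 lower.

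GBP4 stood at 1.76, 1.41, 1.14, 1.91 and 2.69 with RA, against vehicle values of -1.72 at the lowest, 0.56 at the median and 1.47 at the highest (2.86-fold). Only vehicle replicate 6 reached the RA range, and the rise was 1.59 in set 1 and 1.46 in set 2. UBE2L6 stood at 4.54, 4.2, 4.08, 4.91 and 5.24 with RA, against 3.35 to 4.13 in vehicle (median 3.78), and the difference was 0.44 in set 1 and 1.41 in set 2. LGALS3BP stood at 2.79, 2.35, 2.28, 2.42 and 2.77, all above the vehicle range of -0.97 to 2.17 (median 1.43; 2.47-fold), and was the only member of the 53 without overlap upward (1.36% of all genes) while 0 were without overlap downward (0.508%).

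TRIM22 stood at 0.71, 0.89, 1.27, 0.54 and 1.36 with RA, against 1.27 to 2.86 in vehicle, so the groups overlapped between 1.27 and 1.36 (2.04-fold lower). USP18 stood at 0.96, 0.44, -0.08, 0.14 and 0.21, against 0.76 to 1.6 (1.91-fold lower). MX1 stood at 2.0, 2.22, 1.42, 1.19 and 0.81, against 1.22 to 3.56 (1.78-fold lower). USP18 and MX1 were the 2 members whose RA arrays lay below the vehicle arrays within both sets, as in 1.57% of all genes. XAF1 stood at 3.17, 2.67, 2.86, 2.66 and 3.11, against 2.85 to 4.66 (1.78-fold lower), with -1.37 in set 1 (adjusted p = 0.00173) and -0.16 in set 2 (adjusted p = 0.824).

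The array sets disagreed on the effect of RA alone. Set 1 called 0 members higher and 10 lower (1.05% and 0.960% of all genes) with a median of -0.38, and set 2 called 6 higher and 0 lower (4.37% and 0.621%) with a median of 0.37. Estimates had opposite signs in the 2 sets for 31 of 53 members, and the same sign for 10 above and 12 below 0. The difference between the sets lay above 0 for 49 of 53 members, with a median of 0.77 against 0.246 over all genes. No member was called in its limma test, 25 had an unadjusted p under 0.05, and 30 of all genes were called. The per-array median over the 53 members was 3.12, 2.97 and 2.02 in vehicle of set 1 and 2.34, 2.21 and 2.16 in RA of set 1, so 2 of 3 vehicle arrays there were higher than the rest. In set 2 it was 2.16, 2.31 and 2.36 in vehicle and 2.39 and 2.77 in RA. The same medians were 5.02, 4.74 and 5.04 in set 1 and 4.12 and 4.16 in set 2 with TNF, and 4.6, 4.28 and 4.26 in set 1 and 3.6 and 3.65 in set 2 with RA plus TNF.

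**Figure D4:**
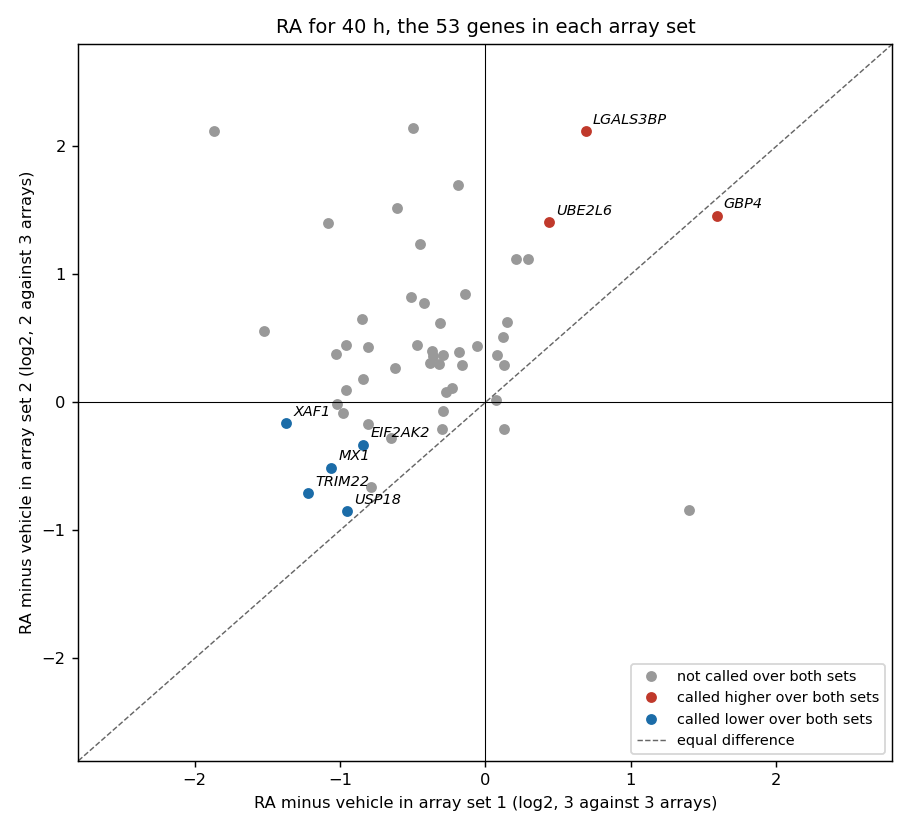
RA minus vehicle at 40 h for each of the 53 genes in array set 1 (horizontal, log2) and array set 2 (vertical, log2), coloured by the call over both sets, with a dashed line of equal difference. Most points lie above the dashed line, and the 5 genes called lower lie left of and below 0 in both sets.

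Single arrays also moved the RA calls, and GBP4 and TRIM22 were the 2 that kept theirs without any of the 11 arrays in turn. The number of calls was 5 without vehicle replicate 2 (2 higher, 3 lower) and 5 without RA replicate 3 (4 higher, 1 lower). Without RA replicate 5 it was 11 (1 higher, 10 lower). A fit of only the RA and vehicle arrays called 3 higher and 0 lower, and a fit without the array set called 0, with limma in each case.

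The interaction subtracts what RA did without TNF from what it did with TNF, and it was called for 0 of 53 members (limma; 0.266% of all genes higher and 0.161% lower). At an unadjusted p under 0.05 there were 7, all lower, and after quantile normalization 1 was called lower, UBE2L6 (-0.95, adjusted p = 0.0375). UBE2L6 was 1.15 above vehicle with TNF, 0.84 with RA and 1.1 with both, and its interaction was -0.89 ± 0.29 (adjusted p = 0.276). The median interaction was -0.33 against 0.04 over all genes. It was -0.03 in set 1, against 0.22 over all genes, and -0.84 in set 2, against -0.2. A difference between the RA effect with TNF and without it was thus not shown for any member.

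In the time course 47 members were bright enough to test, and GBP1, GBP5, IFI27, IFI44, IFI44L and ISG20 were not. All genes together shifted against vehicle: the median was 0.31 after 2 h, 0.38 after 6 h, -0.17 after 16 h and 0.15 after 40 h. Differences below are therefore followed by the value minus that median. The array medians that set the zero averaged 23.2 units after 2 h, 22.2 after 6 h, 32.4 after 16 h and 26.4 after 40 h. They averaged 29.4 in vehicle at 16 h and 29.4 in vehicle at 40 h. The log2 3' to 5' ratio of ACTB averaged 0.22, 0.21, 0.77 and 0.53 at these times, against 0.43 and 0.72 in the vehicle groups. The part of either in the shift was not tested. The 40 h arrays are the set 2 RA arrays already used above and the 3 vehicle arrays at 40 h are shared too.

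At 2 h no member was called (limma; 0.840% of all genes higher, 0.0240% lower), with 3 at an unadjusted p under 0.05 (1 higher, 2 lower), and without RA replicate 2 of that time 1 member was called lower. Quantile normalization called 0 as well. The members' median of -0.06 lay below that of all genes, and 41 of 47 estimates did so too. MX1 showed the lowest, at -1.8 (-2.11 after the shift), from arrays at -2.47 and 0.85 that lay far apart (adjusted p = 0.2). Free of overlap with vehicle were 4 members above (18.8% of all genes) and 1 below (0.472%).

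At 6 h 3 members were higher and 0 lower (8.21% of all genes higher, 0.176% lower; limma, n = 2 against 8), which is under the share of all genes. They were IFIT5 (1.83, or 1.45 after the shift, adjusted p = 0.0478), IFI35 (0.84, or 0.46, 0.00942) and SP100 (0.75, or 0.37, 0.0276). At an unadjusted p under 0.05, 14 were higher and 1 lower. In 11 members the arrays lay above all vehicle arrays (17.8% of all genes) and in 0 below (0.520%). IFI35 stood at 4.45 and 4.84, above the vehicle range of 3.58 to 3.99 (median 3.83), and IFIT5 at 1.46 and 1.97, above -1.22 to 1.2 (median -0.23). SP100 stood at 4.1 and 4.64, above 3.35 to 4.0 (median 3.58), but its 5 other probe sets gave from -0.06 to 0.45. After quantile normalization none of the members was called, where 300 genes were higher and 173 lower against 1026 and 22 before it. Without RA replicate 2 of that time 0 were higher and 1 lower, without vehicle replicate 2 at 16 h 6 were higher, and without vehicle replicate 5 at 16 h 4 were higher and 1 lower.

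At 16 h 3 members were higher (2.36% of all genes) and 1 lower (4.66%; limma, n = 3 against 8). UBE2L6 stood at 4.28, 4.31 and 4.59 against 3.32 to 3.82 in vehicle (median 3.51), a difference of 0.84 (1.01 after the shift). IFI16 stood at 4.38, 4.24 and 4.35 against 3.12 to 4.13 (median 3.56), a difference of 0.72 (0.89), and IFI35 differed by 0.58 (0.75). All 3 were free of overlap, as were 5 members above vehicle (3.06% of all genes) and 2 below (5.05%) in all. USP18 fell to -1.71, -2.82 and -0.21 from a vehicle range of 0.21 to 1.49 (median 0.88), by 2.43 on the log2 scale or -2.26 after the shift (adjusted p = 0.00226). Its 3 arrays were all below the array median, so no fold is given. The call held without any 1 array, at -3.11 without RA replicate 3 of that time and -1.8 without RA replicate 2. Quantile normalization called 7 higher and 1 lower, where 736 genes were higher and 819 lower against 295 and 583 before it. Without RA replicate 2 or 3 of that time 1 member was higher and 1 lower.

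At 40 h in the same course 5 members were higher and 0 lower (4.45% of all genes higher, 0.672% lower; limma, n = 2 against 8). They were GBP4 (1.87, or 1.72 after the shift), LGALS3BP (1.86, or 1.71), UBE2L6 (1.53, or 1.38), IFI16 (1.34, or 1.19) and IFI35 (1.16, or 1.01). UBE2L6, IFI16 and IFI35 were called at 16 h and at 40 h, and all 5 were free of overlap with vehicle, among 12 members above it (10.0% of all genes) and 0 below (2.26%). The members' median was 0.5 against 0.15 for all genes. Against the 40 h vehicle arrays of set 2 alone, the median over all 53 members was 0.37, against 0.14 for all genes. The per-array median over the 53 members was 1.58, 2.13, 2.26, 1.43 and 2.04 in vehicle at 16 h. In vehicle at 40 h of the same set it was 2.16, 2.31 and 2.36. The part of harvest time in these differences was not tested. Without RA replicate 5 the count fell to 1, UBE2L6 (adjusted p = 7.12e-07 with all arrays). Over all genes 557 were higher and 84 lower, and 684 and 640 after quantile normalization, with 6 members higher and 0 lower. At an unadjusted p under 0.05 it was 17 higher and 0 lower without that normalization.

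**Figure D5:**
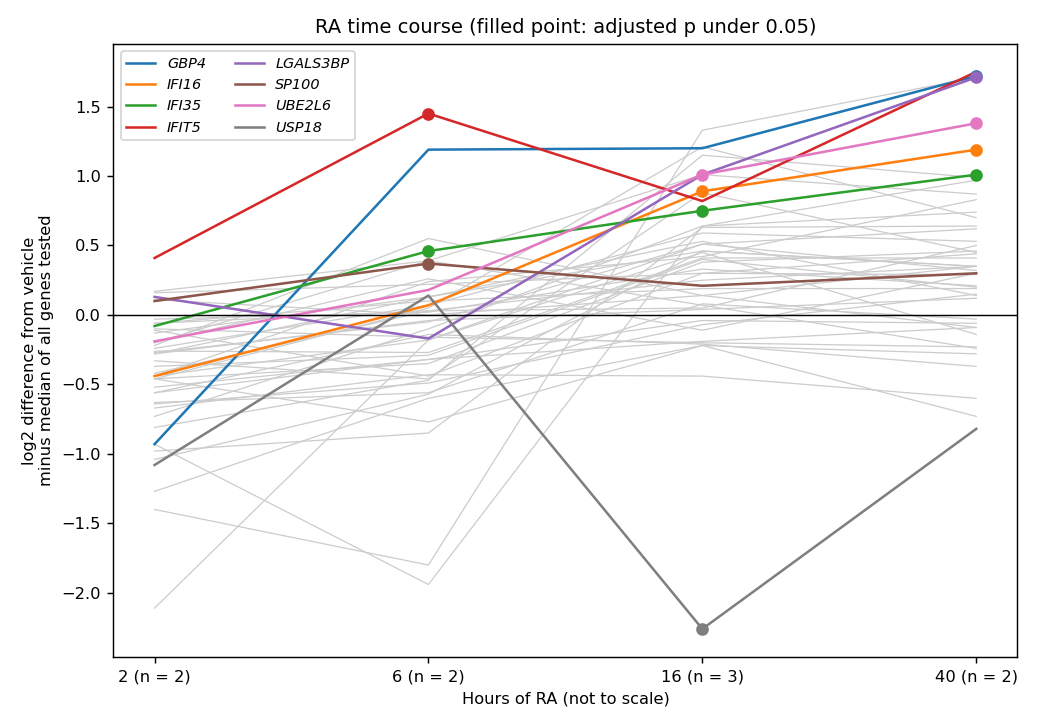
Log2 difference from vehicle minus the median of all genes tested, at 2, 6, 16 and 40 h of RA (spacing not to scale), for the 47 genes tested; coloured lines are genes called at any time and filled points mark the calls. UBE2L6, IFI16 and IFI35 lie higher at 16 and 40 h, and USP18 is lowest at 16 h, at -2.26.

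The genes that make and carry the interferon signal were read from lists of the pathway. Of 21 interferon genes 18 had a probe set, and only IFNA17 and IFNL1 were bright enough to test, with none called in any comparison. IFNB1, the type I interferon of most cell types, averaged 4.43 ± 5.91 signal units in vehicle (SD, n = 6), 3.04 ± 1.94 with TNF (SD, n = 5) and 5.34 ± 5.58 with both (SD, n = 5). IFNB1 levels lie below the array medians, so a change of this transcript was not detectable here. IFNA17 averaged 70.2 ± 19.9 units in vehicle and 51.6 ± 19.2 with TNF.

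Of 6 receptor chains 5 could be tested, and RA plus TNF raised all 5 above vehicle (11.7% of all genes). TNF alone raised 1 (6.69% of all genes), IFNGR2 (0.77 ± 0.17), a chain of the type II receptor. IFNGR2 was 2.0 ± 0.17 above vehicle with both agents, and its interaction was called (1.13 ± 0.25, adjusted p = 0.0241). IFNAR2, a chain of the type I receptor, rose with RA (0.66 ± 0.17) and was 0.99 ± 0.18 higher with both agents than with TNF (adjusted p = 0.000147). IFNGR1 was 1.19 ± 0.17 above vehicle with both agents. Among 3 JAK kinases, TYK2 rose with both agents (0.46 ± 0.16), and 0 were called with TNF alone.

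Of 7 transcription factors tested, TNF raised 2 (6.69% of all genes). IRF7, which amplifies the type I response, ran from 2.48 to 4.09 in vehicle and stood at 5.72, 5.59, 5.39, 4.76 and 4.61 with TNF, with no overlap (log2 2.08 ± 0.22, adjusted p = 6.48e-09). With both agents it stood at 4.27, 4.07, 4.14, 3.2 and 3.5, below every TNF array (-1.38 ± 0.23, adjusted p = 5.24e-05; -1.41 in set 1 and -1.34 in set 2). IRF9, the DNA-binding part of the factor that reads the ISRE, rose with TNF (1.01 ± 0.17) and with both (1.0 ± 0.17). IRF1, which binds similar elements, followed RA instead. It was 1.49 ± 0.18 above vehicle with RA (adjusted p = 1.6e-07) and called at every time point, with differences of 1.87 after 2 h (1.56 after the shift), 1.97 after 6 h (1.59), 1.44 after 16 h (1.61) and 1.89 after 40 h (1.73). With TNF it was 0.21 ± 0.18 from vehicle and did not pass (adjusted p = 0.536).

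Of 12 nucleic acid sensors and adaptors tested, TNF raised 7 (6.69% of all genes) and lowered 1 (4.62%). The raised genes included RIGI (1.88 ± 0.31), the cytosolic RNA sensor, IKBKE (1.34 ± 0.24), a kinase of the IRF pathway, and TLR8 (2.97 ± 0.61), an endosomal RNA receptor. STING1, the adaptor of the cytosolic DNA pathway, fell by 0.74 with TNF and by 1.46 with both agents. Of 8 negative regulators TNF raised 0 and lowered 1 (4.62% of all genes), PIAS1 (-0.58 ± 0.16). CISH, a cytokine-inducible inhibitor, was lower with both agents than with TNF (-1.47 ± 0.35, adjusted p = 0.0048).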

How the data were processed

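Each of the 33 samples is 1 array of 54675 probe sets. Signals were made with GCOS, the Affymetrix analysis software, per the submitters' processing notes. Settings and version of GCOS are not given in the sources used here. Values as deposited by the authors are log2 ratios, with a median of 0 on each array. Below 8 units, 100.0% of the signals recovered from these ratios fell within 0.006 units of a step of 0.1 units. Group means in signal units rest on that recovery.

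Of the probe sets, 41091 carried a single gene symbol, 1801 several and 11721 none, besides 62 controls. Each of 19775 genes was represented by its single-symbol probe set of highest mean. A gene stayed only if its mean linear value reached that of the median probe set, which was 0.882 times the median of an array for experiment 1 and 0.891 times for experiment 2. The remaining 12393 and 12503 genes were fitted with limma 3.58.1 in R 4.3.3 (lmFit, eBayes with an intensity trend). Experiment 1 used all 21 arrays with the array set as covariate, and experiment 2 used 17 arrays. P-values were Benjamini-Hochberg adjusted over all genes of a fit and called under 0.05. Each error after ± is a standard error unless marked SD. On data simulated for TNF against vehicle (12393 genes, 200 changed), 52.5% of changes of 1 on the log2 scale and 82% of changes of 2 were recovered.

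Same-numbered arrays did not vary together: their deviations correlated at -0.04 to 0.037 in set 1 and -0.098 to 0.079 in set 2. The replicate block used these numbers too. In set 2 the record numbers group some vehicle and treatment arrays otherwise than the replicate numbers do, and pairing by record number was not tested. The members and all gene lists were chosen with earlier results of these data known. Members are given array by array where they had the largest TNF difference of their role, or were among the 4 smallest adjusted p called in RA against vehicle, RA plus TNF against TNF, or a time point. Other array values shown (OAS2 and TRIM22 with RA plus TNF, MX1, XAF1 and LGALS3BP with RA, MX1 at 2 h) and the receptor, IRF and sensor genes named from the pathway lists were chosen after their values were seen. Alternatives were quantile normalization, other filters, the mean of a gene's probe sets, no intensity trend, no array set, single array sets, a replicate block, other sample subsets and leaving out each array.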

Additional observations from a re-analysis of the deposited data

Results flagged for a closer look

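In 4 of the 90 groups of 4 or more arrays tested among the members given array by array, 1 array lay far from the rest (Dixon's test), where chance alone gives about 1 in 20. GBP4 read -1.72 in vehicle replicate 3, while the other 5 vehicle arrays at 40 h lay between 0.4 and 1.47. IFI44 read -4.5 in RA replicate 3 at 40 h, while the other 4 lay between -0.56 and 0.68. IFI16 read 5.71 in RA plus TNF replicate 1, while the other 4 lay between 5.07 and 5.2. UBE2L6 read 5.21 in the same array, while the other 4 lay between 4.7 and 4.84.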

How the results depend on the processing

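Counts of members called are higher and lower together. For RA at 40 h (8), quantile normalization gave 14, the mean of a gene's probe sets 5, no intensity trend 3, no array set in the fit 0 and only the compared groups 3. For RA plus TNF against TNF (8), quantile normalization gave 17, no array set 2, array set 1 alone 3 and only the compared groups 22. For RA plus TNF against RA (38), array set 2 alone gave 18, with IFITM3 (-0.1), BST2 (-0.21) and IFI35 (-0.07) turned in sign. Quantile normalization gave 1 for the interaction, 0 at 6 h and 8 at 16 h, and no intensity trend gave 1 at 6 h and 2 at 16 h. Leaving out each array in turn gave 46 to 49 for TNF, 5 to 11 for RA, 37 to 44 for RA plus TNF against vehicle, 6 to 9 against TNF and 34 to 42 against RA. It gave 0 throughout for the interaction, 0 to 1 after 2 h, 1 to 6 after 6 h, 2 to 5 after 16 h and 1 to 7 after 40 h. A replicate block gave 48 for TNF, 7 for RA, 41 for RA plus TNF against vehicle, 10 against TNF, 38 against RA and 0 for the interaction. In the time course the block gave 0 for 2 h, 2 for 6 h, 4 for 16 h and 5 for 40 h. The other alternatives run stayed within 1.5 times each count. The cause of these differences was not tested. The 5 members below the array median in vehicle (GBP1, GBP5, IFI44, IFI44L and ISG20) have little signal over background there, which limits their differences, and 2 arrays at each of 2, 6 and 40 h limit the precision of the time course.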
